A study of Mus musculus with 8 samples.

Results

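Wnt ligands are secreted, lipid-modified proteins that bind Frizzled receptors and either stabilise beta-catenin or signal without it, and 8 of them that act in the bud, the nephron or the stroma of the developing kidney were followed here: Wnt9b, Wnt7b, Wnt11, Wnt6, Wnt4, Wnt10a, Wnt5a and Wnt2b. They were found as the non-control probes whose RefSeq accession belongs to one of these genes, which gave 8 probes, 1 for each gene, out of 41174 probes on the array. Each gene is thus read by 1 probe, with no other probe to compare. All 8 were among the 39520 probes bright enough to test. In the embryonic kidney, Wnt9b made by the ureteric bud, the branching tube that becomes the collecting ducts, induces the surrounding mesenchyme, and Wnt4 made by the induced mesenchyme drives its conversion to the epithelium of the nephron. Wnt11 marks the bud tips, where it is part of a loop with Gdnf and its receptor Ret, and Wnt7b is made by the bud trunk.

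The study compared whole kidneys of E13.5 mouse embryos of a CD1 C57BL/6 mix in 2 groups, wild type and mutant (UB HDAC1, 2-/-), where UB is the ureteric bud and HDAC1 and HDAC2 are enzymes that remove acetyl groups from histones. There were 4 biological replicates of 1 RNA per genotype, and each pair was hybridised on 2 two-colour Agilent arrays with the dyes exchanged, 8 arrays in all, as the sample labels give it. The series' design text differs, in that it speaks of dye swaps on 2 of 4 arrays, and the sample labels were followed. The driver of the deletion and the number of embryos behind an RNA are not given in the sources used here. Each ratio below is a log2 value with the labelled mutant as numerator and the labelled wild type as denominator, averaged over the 2 dye orientations of a replicate, from the scanner's log ratio. In whole kidney RNA, fewer cells of a type and less RNA per cell cannot be told apart.

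The direction of every ratio follows the dye labels, and these go against the authors' deposited table, which states no direction. In that table, 309 of 309 entries whose identifier has 1 probe have the opposite sign, and 248 of them equal the sign-turned mean of the 8 arrays within 0.01. Wnt4 and Wnt10a are the ligands of the 8 that the authors' deposited table lists, at -0.490 and -0.728, against 0.49 and 0.73 by the dye labels. Were its numerator the mutant, all signs given here would be inverted. Hdac2, which the mutant label names, was read by its brightest probe. It had log2 ratios of 0.60, 0.60, 0.74 and -0.61 in replicates 1 to 4 (mean 0.33 ± 0.63, SD, n = 4). It stood higher in the labelled mutant in 3 of 4 replicates and lower in 1, and where this probe lies relative to the deleted part is not known here. The label places the deletion in the bud and the RNA is of whole kidneys, so this ratio cannot check the deletion or the direction. Hdac1 is not analysed here.

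Replicate 2 stood apart from the others over the whole array. In it, 39.3% of the probes were past 1.4-fold in either direction, against 4.57%, 7.07% and 6.43% in replicates 1, 3 and 4. The share of spots well above background was 79.2% in the labelled wild type and 82.1% in the labelled mutant on 1 of its arrays, and at least 88.8% in either RNA on all other arrays. No spot was saturated. Marker genes of the bud, the cap mesenchyme and the stroma were well above background in at least 1 RNA on 8 of 8 arrays for 13 of 14, 10 of 10 and 14 of 14 probes.

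Windows upstream of the start sites were at hand for 5 of the 8 ligands in the RefSeq table of GRCm38.p6, as 6 windows of 250 bases. The windows of Wnt11 and Wnt4, the pair whose levels separated the groups, and of Wnt9b and Wnt2b, the pair that stood low in replicate 2, are shown for comparison of their base composition. They are written 5′ to 3′ on the strand of the gene, with capitals for the core of the site bound by the TCF and LEF partners of beta-catenin, CTTTGA, searched on both strands.
Wnt11, chr7:98834862-98835111, plus strand: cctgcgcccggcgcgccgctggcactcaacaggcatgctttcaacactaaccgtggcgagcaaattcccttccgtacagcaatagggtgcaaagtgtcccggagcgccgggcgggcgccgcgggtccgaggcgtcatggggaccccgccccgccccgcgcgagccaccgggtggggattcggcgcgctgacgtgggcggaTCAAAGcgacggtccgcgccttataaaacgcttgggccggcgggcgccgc
Wnt4, chr4:137277385-137277634, plus strand: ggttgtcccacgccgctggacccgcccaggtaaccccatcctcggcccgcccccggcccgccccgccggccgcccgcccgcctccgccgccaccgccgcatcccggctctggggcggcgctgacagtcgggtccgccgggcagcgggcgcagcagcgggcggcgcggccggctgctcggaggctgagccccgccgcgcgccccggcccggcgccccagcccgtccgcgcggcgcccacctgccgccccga
Wnt9b, chr11:103749822-103750071, minus strand: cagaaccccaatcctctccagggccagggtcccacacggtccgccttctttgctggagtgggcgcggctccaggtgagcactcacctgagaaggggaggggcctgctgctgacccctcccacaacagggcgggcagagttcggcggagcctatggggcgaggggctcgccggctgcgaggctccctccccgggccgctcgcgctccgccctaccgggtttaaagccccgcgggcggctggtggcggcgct
Wnt2b, chr3:104961710-104961959, minus strand: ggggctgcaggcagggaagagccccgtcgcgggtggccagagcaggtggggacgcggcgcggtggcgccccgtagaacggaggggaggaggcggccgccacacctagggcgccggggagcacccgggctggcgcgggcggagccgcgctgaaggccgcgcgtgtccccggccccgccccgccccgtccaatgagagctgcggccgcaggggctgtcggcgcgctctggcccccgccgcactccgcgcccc
Of the 6 windows, 1 held the core, the upstream window of Wnt11, where it begins 50 bases before the start site on the opposite strand. Of all 32851 windows in the table, 13.8% held it. All of the printed windows are rich in G and C, at 70.8% for Wnt11, 85.2% for Wnt4, 72.0% for Wnt9b and 80.8% for Wnt2b, where the median of all windows is 52.4%. The arrays measure transcripts, and the windows were not tested against them.

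None of the 8 ligands passed the adjusted threshold of 0.05 over all probes in limma, which 0.0177% of the probes passed (7 of 39520). With loess none passed either, where 0.00253% of the probes did. At an unadjusted p under 0.05, 3 of the 8 stood above 0 and none below, where 3.15% of all probes stood above 0 at that p. These were Wnt10a, Wnt11 and Wnt4, the 3 ligands whose ratio was above 0 on 8 of 8 arrays, which held for 2.25% of all probes. With loess, of these 3 Wnt10a alone was above 0 on all 8 arrays. Wnt11 was then at -0.42 and -0.14 with Cy5 carrying the labelled mutant in replicates 3 and 4, and Wnt4 at -0.03 with Cy3 carrying it in replicate 1. At least 1.4-fold and at that p, the ligands were Wnt10a and Wnt4, and 0.903% of all probes met both. The median ratio of the 8 ligands was 0.25, against 0.02 over all probes, and without replicate 2 it was 0.24. With loess it was 0.12, against -0.01 over all probes. The ligands were chosen with earlier results of these data known, so the shares over all probes are no independent comparison.

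**Figure D1:**
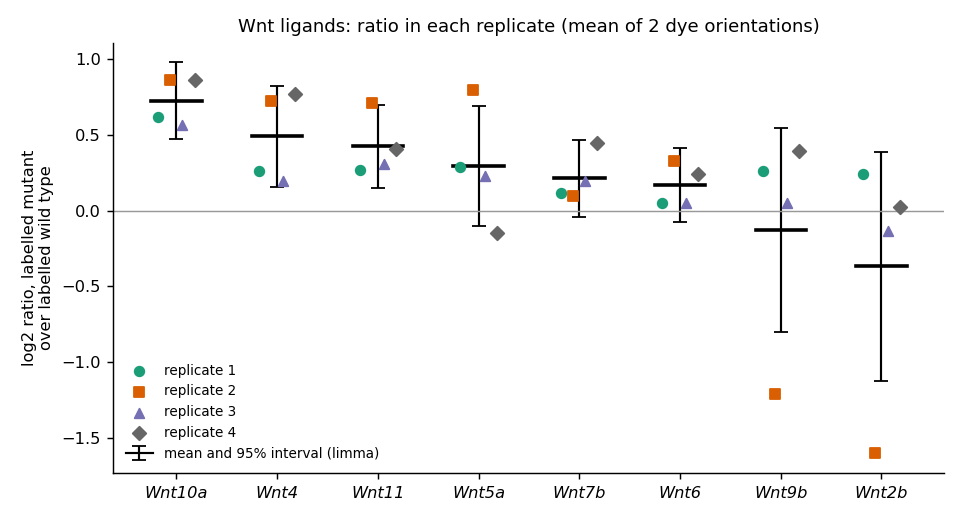
Log2 ratio of the labelled mutant over the labelled wild type (vertical axis) for the 8 ligands (horizontal axis), with a point for each of 4 replicates and a bar for the mean with its 95% interval from limma. Wnt10a stands highest with all replicates between 0.56 and 0.87, and replicate 2 of Wnt9b and Wnt2b lies at -1.21 and -1.60, apart from the others.

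Wnt10a, a ligand known for activating beta-catenin in teeth, hair and skin appendages, had the ratio of smallest p among the 8. Its replicates stood at 0.62, 0.87, 0.56 and 0.86. All are well above 0, with a spread of 0.16 (SD, n = 4). The mean of 0.73 is 1.66-fold, with a 95% interval from 1.39-fold to 1.97-fold, an unadjusted p of 0.000423 and an adjusted p of 0.194 in limma. The exact sign-flip permutation test gave p = 0.125, the smallest that 4 replicates allow in a two-sided test. Without replicate 2 the ratio was 0.68, and within the slides of replicates 1 and 2 and of replicates 3 and 4 it was 0.74 and 0.71. Its probe was dim, with processed signals from 49.1 to 409, and was not well above background in the labelled wild type on 1 array. On median signals with normexp background correction and loess normalization the size was 0.50 ± 0.19 (SD, n = 4). The normalized levels of the 2 groups overlapped, at 7.63, 7.63, 8.18 and 8.22 in the labelled wild type and 8.06, 8.23, 8.45 and 8.93 in the labelled mutant, since replicates 3 and 4 stood above 1 and 2 in both.

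Wnt4, the signal of the mesenchyme's conversion to nephron epithelium, stood at 0.26, 0.73, 0.20 and 0.77 in replicates 1 to 4. The replicates fall into a lower and a higher pair, and the mean was 0.49 ± 0.30 (SD, n = 4), or 1.405-fold with a 95% interval from 1.11-fold to 1.77-fold (limma, unadjusted p = 0.0119, adjusted p = 0.684). With loess it was 0.34 ± 0.18. Its level was 11.32, 11.42, 11.31 and 11.31 in the labelled wild type and 11.47, 11.77, 11.62 and 11.88 in the labelled mutant. Every labelled mutant RNA thus lay above every labelled wild type RNA, which holds for 2 of the 8 ligands and for 0.968% of all probes. The wild type RNAs differed by 0.05 (SD, n = 4) and the mutant RNAs by 0.18.

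Wnt11, the ligand of the bud tips, was the other ligand whose levels did not overlap. Its level was 10.68, 10.78, 10.64 and 10.65 in the labelled wild type and 11.02, 11.10, 10.79 and 11.13 in the labelled mutant. Replicate 3 of the labelled mutant lies just above the highest wild type RNA. The ratios were 0.27, 0.71, 0.31 and 0.41, with a mean of 0.42 ± 0.20 (SD, n = 4), or 1.34-fold with a 95% interval from 1.11-fold to 1.62-fold (limma, unadjusted p = 0.00907, adjusted p = 0.635). Replicate 2 was the highest of them, and without it the mean was 0.33 ± 0.07 (SD, n = 3). Its mean was 0.55 where Cy3 carried the labelled mutant and 0.30 where Cy5 did.

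**Figure D2:**
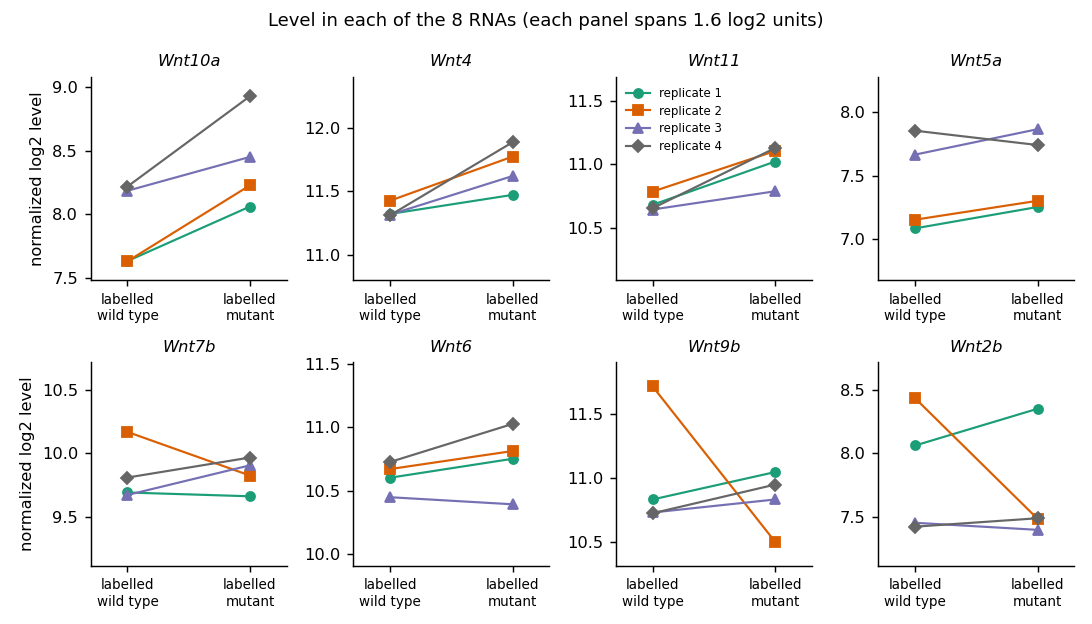
Normalized log2 level (vertical axis) of each ligand in the labelled wild type and the labelled mutant RNA, with a line for each of 4 replicates, from single channels averaged over both dyes; levels are not comparable between panels. Every line goes up for Wnt10a, Wnt4 and Wnt11, and replicate 2 starts high in the labelled wild type for Wnt9b, at 11.72, and Wnt2b, at 8.43.

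Wnt9b, the bud's inducer of the nephron mesenchyme, gave a mean that rested on 1 replicate. Its ratios were 0.26, -1.21, 0.05 and 0.39, and the mean was -0.13 ± 0.74 (SD, n = 4; limma, adjusted p = 0.859). Replicates 1, 3 and 4 stood above 0 and replicate 2 far below. Without replicate 2 the mean was 0.24 ± 0.17 (SD, n = 3), so the sign turned, and with median centring it was 0.0012. Both dye orientations of replicate 2 were low, at -0.95 with the labelled mutant in Cy5 and -1.46 with it in Cy3. The processed signals on these arrays were 603 in the labelled mutant against 1165 in the labelled wild type, and 1913 against 5279. Of the 8 normalized levels, the labelled wild type RNA of replicate 2 was the highest, at 11.72, and its labelled mutant partner the lowest, at 10.498. The other 6 RNAs lay between 10.72 and 11.05. Of the 8 ligands 2, Wnt9b and Wnt2b, were beyond 1 in either direction in replicate 2, where 9.94% of all probes were. The interval of the mean of Wnt9b, from 0.575-fold to 1.46-fold, holds changes in either direction.

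Wnt2b, a ligand of the mesenchyme around the kidney, had the same replicate apart. Its ratios were 0.24, -1.60, -0.14 and 0.02, with a mean of -0.37 ± 0.84 (SD, n = 4; limma, adjusted p = 0.757). Replicate 2 alone gave the mean its sign, and without it the mean was 0.04 ± 0.19 (SD, n = 3). With loess the mean was -0.16 ± 0.54 (SD, n = 4) and replicate 2 stood at -0.95. On the array of replicate 2 with the labelled mutant in Cy5, neither RNA was well above background for this probe, with signals of 12.7 and 40.5, while on the other array they were 249 and 720. In replicate 2, 7.83% of all probes stood below -1. Replicates 3 and 4 differed in sign between the dye orientations, at 0.34 and -0.62 in replicate 3 and at 0.30 and -0.25 in replicate 4.

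**Figure D3:**
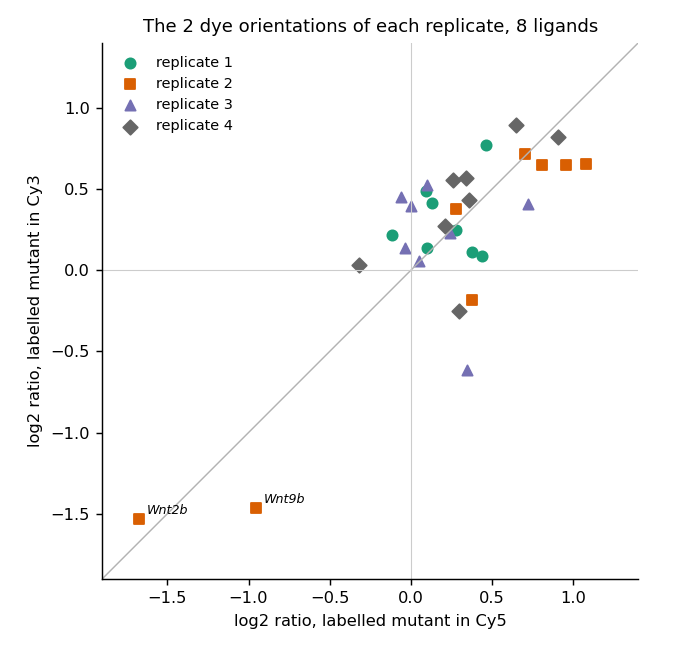
Log2 ratio with the labelled mutant in Cy5 (horizontal axis) against that with it in Cy3 (vertical axis), with a point for each of 8 ligands in each of 4 replicates and a grey line where both orientations are equal. Replicate 2 of Wnt9b and Wnt2b lies far below 0 in both orientations, and 53 of the 64 array values are above 0.

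Wnt7b, a ligand of the bud trunk that is needed for the elongation of the collecting ducts, stood at 0.12, 0.10, 0.19 and 0.45. All replicates were above 0, and the mean was 0.21 ± 0.16 (SD, n = 4), with a 95% interval from 0.972-fold to 1.38-fold (limma, adjusted p = 0.757). The value depended on the normalization. With loess the mean was 0.00 ± 0.26 and replicate 2 stood at -0.34. Its levels overlapped, from 9.67 to 10.17 in the labelled wild type and from 9.66 to 9.97 in the labelled mutant.

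Wnt6, a ligand of the bud epithelium, had the smallest spread of the 8. Its ratios of 0.05, 0.33, 0.05 and 0.24 gave a mean of 0.17 ± 0.14 (SD, n = 4), with an interval from 0.948-fold to 1.33-fold (limma, adjusted p = 0.757). The levels overlapped, from 10.45 to 10.73 in the labelled wild type and from 10.39 to 11.03 in the labelled mutant. An increase above 1.33-fold lies outside that interval.

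Wnt5a, a ligand that mostly signals without beta-catenin and that acts in the early kidney mesenchyme, stood at 0.29, 0.80, 0.23 and -0.15. Replicate 4 was below 0 and replicate 2 highest, and the mean was 0.29 ± 0.39 (SD, n = 4; limma, adjusted p = 0.757). Without replicate 2 it was 0.13 ± 0.24 (SD, n = 3), and with median centring in place of the scanner's dye normalization -0.032. With loess it was 0.10. Its probe was dim, with signals from 21.2 to 110, and was not well above background in the labelled wild type on 1 array. Its levels separated the slides more than the groups. The labelled wild type RNAs stood at 7.09 and 7.16 in replicates 1 and 2 and at 7.67 and 7.86 in replicates 3 and 4, and the labelled mutant RNAs at 7.26, 7.30, 7.87 and 7.74.

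In sign alone, 6 of the 8 ligands had a mean above 0, where 54% of all probes did, and without replicate 2 all 8 did, where 57.4% of all probes did. Wnt10a, Wnt4, Wnt11, Wnt7b and Wnt6 were above 0 in 4 of 4 replicates, 5 of the 8, and 10.7% of all probes were. By size the order ran from Wnt10a over Wnt4, Wnt11, Wnt5a, Wnt7b and Wnt6 to Wnt9b and Wnt2b. The 95% intervals of neighbours in that order overlapped throughout.

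**Figure D4:**
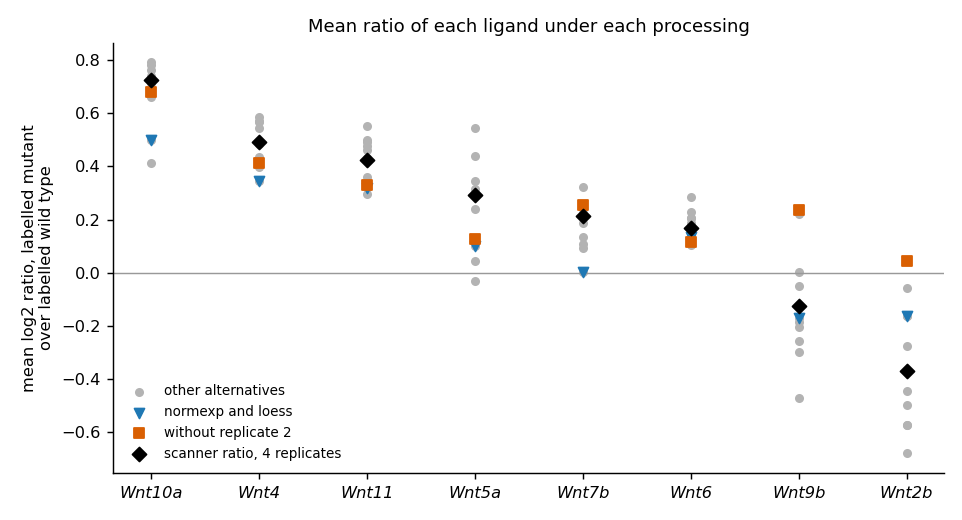
Mean log2 ratio (vertical axis) of each ligand under each processing, with a black diamond for the scanner ratio over 4 replicates, an orange square without replicate 2, a blue triangle for normexp and loess, and grey points for the other alternatives. Wnt10a, Wnt4, Wnt11, Wnt7b and Wnt6 stay above 0 in every alternative run, Wnt7b at only 0.0045 with loess. Several grey points repeat the black diamond, since those alternatives leave the ratio as it is. Wnt9b moves from -0.13 to 0.24 without replicate 2.

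Markers of the bud epithelium stood higher in the labelled mutant by their median. Of 14 probes of 10 bud marker genes, 10 stood above 0, where 54% of all probes did. At an unadjusted p under 0.05, 8 were above 0, where 3.15% of all probes were, and none passed after adjustment. The marker lists were also chosen with earlier results of these data known. The median ratio of the bud markers was 0.35, at 0.44, 0.21, 0.35 and 0.41 in replicates 1 to 4. Replicate 2 was the lowest for these markers and the highest for the ligands, whose medians were 0.26, 0.52, 0.20 and 0.40. The mean log2 level of the bud markers ran from 11.004 to 11.29 in the labelled wild type and from 11.32 to 11.64 in the labelled mutant, without overlap. Macrophage markers did not overlap either, with the labelled mutant lower, at 8.690 to 8.902 against 8.904 to 9.040. The same held for neural crest and neuron markers, at 9.46 to 9.587 against 9.591 to 10.01. In each of these lists the ranges nearly met, most closely for the macrophage and the neural crest and neuron markers. How often lists of this size separate was not tested. The 2 bud marker genes of smallest p were keratins of simple epithelia, Krt18 at 1.14 ± 0.20 (SD, n = 4; limma, adjusted p = 0.0984) and Krt8 at 0.96 ± 0.13 (adjusted p = 0.109). The part of the bud markers in the ratios of Wnt11, Wnt7b, Wnt6 and Wnt9b was not tested. At an unadjusted p under 0.05, 5 of 13 macrophage probes were below 0 and 1 above, and 3 of 14 stroma probes were below 0 and 1 above. Of 7 neural crest and neuron probes, 2 were below 0 and none above. Over the array, 1132 of 39520 probes were below 0 at that p. None of these marker probes passed after adjustment. Markers of other cells had median ratios of -0.13 for the cap mesenchyme, 0.06 for the early nephron, where Wnt4 is made, -0.16 for the stroma, 0.06 for the endothelium, -0.28 for macrophages, -0.08 for erythroid cells, -0.21 for neural crest and neurons (-0.00 without replicate 2) and -0.02 for adrenal and gonad (0.02 without replicate 2). Without replicate 2 the medians were -0.07 for the cap mesenchyme, 0.11 for the early nephron and 0.01 for the endothelium.

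The other genes of the pathway were read from lists of 103 genes, of which 100 had 140 tested probes, and none of these passed the adjusted threshold. At an unadjusted p under 0.05, 15 probes stood above 0 and 3 below, 12.9% of the list against 6.01% of all probes. Each list was chosen with earlier results of these data known, so the share over all probes is no independent comparison. Among the 11 other Wnt ligands, 1 of 14 probes was at that p, Wnt2, a ligand best known from lung and vessels. Wnt2 stood at 0.31, 0.79, 0.28 and 0.71 (mean 0.52 ± 0.26, SD, n = 4; limma, adjusted p = 0.573), above 0 on 8 of 8 arrays, and the authors' deposited table lists it at -0.524. The median of the 14 probes was -0.01. The next by p, Wnt8b, stood at 0.32 ± 0.47, and at 1.01 in replicate 2.

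Among receptors, the Frizzled and LRP list had a median of 0.11 over 16 probes, with 2 above 0 at an unadjusted p under 0.05. Fzd10 stood at 0.80, 0.65, 0.52 and 0.86 (mean 0.71 ± 0.15, SD, n = 4; limma, adjusted p = 0.194), and its other probe at -0.04. Fzd4 stood at 0.25 ± 0.14. The median of the list was 0.06 without replicate 2 and 0.05 with loess. Genes of Wnt secretion had a median of 0.15, of 0.03 without replicate 2 and of 0.06 with loess. In that list, Notum, an enzyme that removes the lipid from Wnt proteins and inactivates them, stood at 0.59 ± 0.39 (adjusted p = 0.672), and at 0.35 with loess. Wls, the carrier that brings Wnt proteins to the cell surface, stood at 0.15 ± 0.36, and at 0.01 without replicate 2.

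Lists of modulators and of planar polarity genes showed small medians, which with loess were 0.04 for R-spondins, -0.01 for inhibitors and 0.02 for planar polarity. R-spondins with their receptors and the ligases they block had a median of 0.09 over 12 probes. In that list, Rnf43, a ligase that removes Frizzled receptors from the cell surface, stood at 0.59, 0.51, 0.73 and 0.58 (mean 0.60 ± 0.09, SD, n = 4; limma, adjusted p = 0.229), and Lgr5, an R-spondin receptor, at 0.31 ± 0.28. Secreted and membrane inhibitors had a median of 0.04 over 18 probes, of which 2 were above 0 and 1 below at an unadjusted p under 0.05 (limma). In that list, the Wnt-binding antagonist Frzb stood at 0.55 ± 0.28 (adjusted p = 0.571) and the Dickkopf receptor Kremen2 at 0.42 ± 0.19 (adjusted p = 0.639). For receptors without beta-catenin and planar polarity genes the median was 0.04 over 28 probes, of which 1 was above 0 and 1 below at that p. Here Invs stood at 0.24 ± 0.11 and the polarity gene Prickle1 at 0.18 ± 0.07, whose other probe stood at -0.32.

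Feedback targets of beta-catenin, which report the pathway's activity in many tissues, had the highest median of the pathway lists, 0.28 over 16 probes, and 14 of the 16 were above 0, where 54% of all probes were. At an unadjusted p under 0.05, 7 were above 0, where 3.15% of all probes were, and none below, and none passed after adjustment. This list, too, was chosen with earlier results of these data known. Rnf43 had the smallest p, followed by the transcription factor Lef1, at 0.40, 0.60, 0.50 and 0.47 (mean 0.49 ± 0.08, SD, n = 4; limma, adjusted p = 0.372). Replicate 2 was the highest of the 4, with a list median of 0.56 against 0.25, 0.30 and 0.30. Without it the median was 0.23.

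Lists of genes downstream of single ligands had lower medians than the feedback targets. A list of nephron progenitor genes that holds targets of Wnt9b such as Cited1 had a median of 0.04 over 13 probes, of -0.05 without replicate 2 and of 0.0049 with loess. At an unadjusted p under 0.05 (limma), 1 of these probes was below 0 and none above. Gdnf stood at 0.20 ± 0.08 (SD, n = 4; limma, adjusted p = 0.757) and the integrin Itga8 at -0.16 ± 0.13. This was the lowest of the 3 probes of Itga8, of which the highest stood at 0.07, and with loess it was -0.06. Genes of the renal vesicle, the first epithelium that forms under Wnt4, had a median of 0.15 over 10 probes, and of 0.10 with loess. In that list, the Notch ligand Dll1 stood at 0.20 ± 0.13 and Fgf8 at 0.16 ± 0.12. Genes of the loop that joins Wnt11 to Ret had a median of 0.15 over 14 probes. It was 0.09 without replicate 2 and 0.11 with loess. Gdnf is given above, and the Ret coreceptor Gfra1 stood at 0.22 ± 0.19, with its other probe at -0.17.

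**Figure D5:**
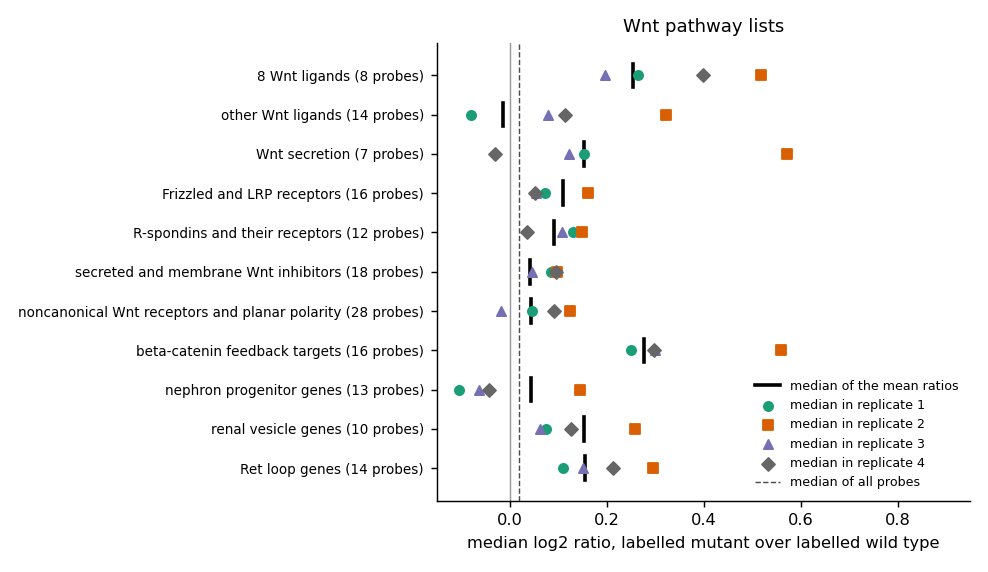
Median log2 ratio (horizontal axis) of the 8 ligands and of each Wnt pathway list (vertical axis), with a point for the median in each of 4 replicates, a bar for the median of the mean ratios, and a dashed line for the median of all probes, 0.02. The feedback targets of beta-catenin, at 0.28, and the 8 ligands, at 0.25, have the highest medians, and replicate 2 is highest in each list.

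The genes whose level was most like that of a ligand over the 8 RNAs were taken by Pearson's r among 17041 other named genes, as a description. Wnt9b was most like Prm2, a protamine of sperm chromatin (r = 0.990), the dopamine receptor Drd4 (0.989) and Ret (0.989). All of these stood low in replicate 2, Prm2 at -1.12, Drd4 at -1.47 and Ret at -0.46. Wnt2b was most like Sectm1b (0.998), Gucy2e (0.997) and the pheromone receptor Vmn1r24 (0.996), which stood at -1.38, -1.40 and -1.21 in replicate 2. The ratios of these 6 genes in the other replicates lay between -0.26 and 0.33.

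Wnt11 and Wnt4 shared a gene of like level. Sema3b, a secreted guidance protein, was second to 1190007I07Rik for Wnt11 (r = 0.955) and second to Abhd17c for Wnt4 (0.935), and stood at 0.33, 0.41, 0.58 and 0.69 in replicates 1 to 4. For Wnt10a the closest were Cx3cl1 (0.968), Pltp (0.960) and Ddo (0.958). The closest for Wnt7b was Slfn1 (0.961), for Wnt6 Creld1 (0.981) and for Wnt5a Trim12c (0.984). These are the highest of many values over few RNAs that share arrays in pairs.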

How the data were processed

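The authors' two-colour scans were read by Feature Extraction 10.5.1.1, per the file headers. The deposited log ratio is the log10 of Cy5 over Cy3 processed signal, which the scanner software had background-subtracted and dye-normalized, per the file headers. The deposited intensity columns also hold median spot and background signals with no normalization. The deposited flags of other kind are 0 or 1. The authors' deposited table gives log2 ratios selected with MeV 4.9, per its name.

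Log ratios were converted to log2 and turned to labelled mutant over labelled wild type. Outlier spots were left out, spots of a probe averaged, and the 2 arrays of a replicate averaged, a replicate with 1 array missing being dropped. A probe entered the test if either RNA was well above background on at least 4 of 8 arrays. Probes were tested against 0 with limma 3.58.1 in R 4.3.3 (lmFit, eBayes, two-sided) with Benjamini-Hochberg adjustment over all 39520 probes. The fit was tested on simulated data. Of 41174 probes, 25089 matched a RefSeq symbol. Single-channel levels came from normexp at an offset of 50, loess and Aquantile normalization. The whole-series processing of these data used loess, which is an alternative here because the ratio set for the ligands is the scanner's. Mean signals were not used. Other alternatives were median centring, 2 filters, the replicate block, slides, dye orientations, the brightest probe of each gene, and each replicate left out.

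The deviations of partner RNAs from their group means correlated at 0.511, 0.574, 0.760 and 0.678 in replicates 1 to 4. Partners share their arrays, so these values cannot show whether the RNAs were also paired as samples. The ratio keeps the pairing by array. Precision is limited by how few arrays there are. The members and lists were chosen with earlier results of these data known. Named genes were every member, Hdac2, from each list the members that passed or else the 2 of smallest p by the brightest probe, and the 3 genes of likest level per ligand.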

Additional observations from a re-analysis of the deposited data

Results flagged for a closer look

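Of 47 sets of 4 values examined (ratios and levels of the ligands and Hdac2, and list medians), 5 held a value far from the others, and chance gives about 1 in 20. The Wnt9b level of the labelled wild type RNA of replicate 2 was 11.72, against 10.72 to 10.83 in the other wild type RNAs. The Wnt4 level was also highest in the labelled wild type RNA of replicate 2, at 11.42, although the wild type RNAs of Wnt4 spanned a small range from 11.31. The Wnt2b level of the labelled mutant RNA of replicate 1 was 8.35, against 7.399 to 7.49 in the other labelled mutant RNAs. It was not apart from the labelled wild type RNAs of the same slide, replicates 1 and 2, at 8.06 and 8.43. The median ratio of the beta-catenin feedback targets was 0.56 in replicate 2. The Hdac2 ratio of replicate 4 was -0.61, against 0.60 to 0.74 in the others.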

How the results depend on the processing

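No ligand passed the adjusted threshold in any alternative that gave it a value, and Wnt10a came nearest, at an adjusted p of 0.0515 with 8 arrays, a dye term and the replicate block, in a range up to 1.0. Wnt11, Wnt4, Wnt7b and Wnt6 kept their sign in 16 of 16 alternatives and Wnt10a in 15 of 15. Alternatives that changed only the filter, the block or the probes tested gave the same ratio, so their sign was fixed in advance. The single-channel levels repeated the loess ratio. With loess the ratio of Wnt7b was 0.0045, so its sign there carries no weight. With median centring Wnt9b turned to 0.0012 and Wnt5a to -0.032, and within slide 2 Wnt9b turned to 0.22. Leaving out each replicate in turn gave Wnt9b from -0.30 to 0.24 and Wnt2b from -0.57 to 0.043, turned in both without replicate 2. The strict filter removed Wnt10a, Wnt5a and Wnt2b. The cause of these shifts was not tested, beside the removal of replicate 2 itself.

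Calls over the array moved from 7 to 1 with loess, 17 with median centring (where 3202 probes stood above 0 and 615 below at an unadjusted p under 0.05, against 1243 and 1132), 2 without a filter, 13 with the strict filter (fewer probes tested), 1 with the slide as a block, 0 within slide 1, 452 within slide 2, 1 with the labelled mutant in Cy5 and 36 with it in Cy3. They ran from 0 to 10 with each replicate left out. Where limma called 0, probes at an unadjusted p under 0.05 numbered 758 within slide 1 and 2596, 912 and 1962 without replicates 1, 3 and 4. With 8 arrays, a dye term and the replicate block, 98 probes passed, 1 of them in the pathway lists (Fzd10). With no replicate block, on single-channel levels, limma called 0 probes, and 731 were at an unadjusted p under 0.05. The pairing changed no call of a ligand. The neural crest and neuron markers moved to -0.00 without replicate 2, an alternative chosen after seeing the data. Dim probes (Wnt10a, Wnt5a and Wnt2b) limit what can be said of their size.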

Other observations

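Over the 8 RNAs, the levels of some ligands followed each other, given here as a description without a test, since partner RNAs share arrays. Wnt11 and Wnt4 correlated at 0.870, Wnt9b and Wnt2b at 0.754, and Wnt10a and Wnt5a at 0.761. Wnt5a and Wnt2b ran opposite to each other, at -0.811. Wnt9b and Wnt11, both ligands of the bud, correlated at -0.060. Within each group, the levels of Wnt10a and Wnt5a stood higher in replicates 3 and 4 than in 1 and 2, as given above. Those of Wnt2b stood lower there in the labelled wild type, at 7.45 and 7.42 against 8.06 and 8.43. In the labelled mutant, replicate 1 of Wnt2b alone stood apart, at 8.35. Wnt9b and Wnt2b were both highest in the labelled wild type RNA of replicate 2, at 11.72 and 8.43. The part of the slides and of this RNA in the correlations was not tested.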
